A study of Mus musculus with 6 samples.

Results

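The core circadian clock genes were taken as the rows of the deposited expression table whose gene name was *Clock*, *Arntl*, *Per1*, *Per2*, *Per3*, *Cry1*, *Cry2*, *Nr1d1*, *Nr1d2* or *Dbp*. All 10 were found among the 55060 genes of the table, all 10 were above 0 in each of the 6 samples, and all 10 were among the 21211 genes with a mean of at least 0.1 FPKM that entered the comparison. FPKM counts the fragments on a gene relative to its length and to the size of the library, so that levels of different genes can be set side by side.

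The circadian clock is a feedback loop of transcription factors that runs in nearly every mammalian cell. CLOCK and BMAL1, the product of *Arntl*, bind E-box sequences as a dimer and activate the *Per* and *Cry* genes, whose proteins return to the nucleus and inhibit the dimer. A second loop is closed by REV-ERBα and REV-ERBβ, the products of *Nr1d1* and *Nr1d2*, which are also activated through E-boxes and repress *Arntl* through ROR elements. *Dbp* encodes an output factor that binds D-boxes. In tissues sampled around the clock, *Arntl* transcripts peak close to opposite in time to those of *Dbp* and the *Per* genes, and β cells hold a clock of their own that bears on insulin secretion.

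RNA was sequenced from islets of 3 Ctrl and 3 cKO samples of 12-week-old mice to ask what the loss of the poly(A)-specific ribonuclease PARN changes in β cells. The cKO mice were Ins2-Cre; Parn f/f mice, in which Cre under the *Ins2* promoter removes a floxed *Parn* exon, while the Ctrl mice were littermates, among them Parn f/f animals. Whether any Ctrl animal carried Cre, how many animals entered a sample and the time of day at which islets were taken are not given in the sources used here. Isolated islets hold α, δ, endothelial and other cells beside β cells, and in such bulk samples fewer cells of a type and less RNA per cell cannot be told apart.

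Between 16289408 and 17944775 reads fell on genes in each sample. *Parn* was at 6.64, 8.34 and 7.38 FPKM in Ctrl replicates 1, 2 and 3 and at 4.97, 4.61 and 6.15 FPKM in cKO replicates 1, 2 and 3, so the genotypes did not overlap for the targeted gene, and its difference was -0.44 ± 0.131 (SE) on the log2(FPKM + 1) scale with an adjusted p of 0.545 (limma). The samples differed in ways the genotype labels do not give. *Xist*, the RNA of the inactive X chromosome, was read together with the Y-linked *Ddx3y* in Ctrl replicates 1 and 2 and in cKO replicate 1, at 20.4 to 29.9 FPKM for *Xist* and 1.16 to 6.31 FPKM for *Ddx3y*. *Ddx3y* had 0 reads in Ctrl replicate 3 and cKO replicate 2, where *Xist* was at 42.5 and 39.4 FPKM. In cKO replicate 3 *Xist* was at 0.139 FPKM and *Ddx3y* at 9.83 FPKM, so the animals behind the samples were of different sexes, and the part of this in the results was not tested. Ctrl replicate 1 stood apart by leukocyte markers, whose FPKM summed to 65.7 against 12.4 to 16.7 in the other 5 samples, and by proliferation markers, which summed to 10.2 against 1.35 to 2.86. Some results that rest on this library are also given without it. The values of r between *Dbp* and genes outside the core clock set are given only with it.

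Promoter sequence was read for the members from RefSeq on build GRCm38.p6, from 250 bases before to 50 bases after each annotated start site, and 9 of the 10 members matched, with 13 promoters in all. *Per2* had no entry. The letters of each motif were sought on both strands. The E-box CACGTG was held by 7.15% of the 32851 mouse promoters of this length and by those of *Cry1* and *Per1*. The E'-box CACGTT, read as AACGTG on the other strand, was held by 4.68% of all promoters and by those of *Cry1*, *Cry2* and *Nr1d1*. The D-box TTATGTAA or TTACGTAA was held by 1.06% of promoters and among the members by *Per3*, with 2 copies, and the core of the ROR element, TAGGTCA, by 2.61% and among the members by *Arntl*. The cAMP response element TGACGTCA, held by 1.79%, was in 0 of the 13 member promoters. These matches are shown because they are the letters through which the loop is known to act on its own genes. No motif overlapped another, and the E-box and E'-box of *Cry1* stand in the same stretch. The motif is in capitals and each sequence is written 5′ to 3′ on the strand of the gene.
Cry1 E-box, chr10:85185088-85185135, minus strand, first base of the motif at -60 from the start site: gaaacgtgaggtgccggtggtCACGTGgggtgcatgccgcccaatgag
Cry1 E'-box, chr10:85185107-85185154, minus strand, at -79: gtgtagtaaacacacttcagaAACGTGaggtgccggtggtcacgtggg
Per1 E-box, chr11:69098762-69098809, plus strand, at -166: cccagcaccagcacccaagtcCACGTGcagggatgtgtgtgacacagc
Cry2 E'-box, chr2:92434209-92434256, minus strand, at -166: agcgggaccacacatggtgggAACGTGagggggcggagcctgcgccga
Nr1d1 E'-box, chr11:98775379-98775426, minus strand, at -28: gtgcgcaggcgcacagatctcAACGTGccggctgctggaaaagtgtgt
Per3 D-box, chr4:151044843-151044890, minus strand, at -205: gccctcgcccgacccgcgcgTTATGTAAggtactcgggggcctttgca
Per3 D-box, chr4:151044796-151044843, minus strand, at -158: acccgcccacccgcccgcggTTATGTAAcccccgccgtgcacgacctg
Arntl ROR element core, chr7:113207529-113207558, plus strand, at 31, after the start site: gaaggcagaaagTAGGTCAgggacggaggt

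By the mean over the 6 samples, the order of the levels was *Dbp* at 25.3 FPKM, *Nr1d1* at 23.9, *Nr1d2* at 18.4, *Cry2* at 16.1, *Per1* at 11.996, *Per2* at 8.67, *Clock* at 4.94, *Cry1* at 4.004, *Per3* at 3.49 and *Arntl* at 1.41. Neighbours in this order overlapped in their samples, with the exception of *Per3* and *Arntl*, since the lowest *Per3* sample, at 2.31 FPKM, lay above the highest *Arntl* sample, at 2.13 FPKM.

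The activators differed more between samples than between genotypes. *Arntl* was at 1.37, 0.769 and 2.13 FPKM in Ctrl replicates 1, 2 and 3 and at 0.583, 1.56 and 2.08 FPKM in cKO replicates 1, 2 and 3. Its lowest samples were thus 1 of each genotype, Ctrl replicate 2 and cKO replicate 1, and its highest were Ctrl replicate 3 and cKO replicate 3, with a highest over lowest ratio of 3.65. The counts were small, 77 reads in cKO replicate 1 and 283 in cKO replicate 3, and their 95% exact Poisson intervals, which cover counting error only, were 0.460 to 0.728 and 1.84 to 2.34 FPKM and did not overlap. *Clock*, the partner of BMAL1, was the steadiest member, at 4.85, 4.28 and 5.75 FPKM in Ctrl and at 4.27, 5.27 and 5.22 FPKM in cKO. The order of the samples was nearly that of *Arntl*, with Ctrl replicate 2 and cKO replicate 1 lowest and Ctrl replicate 3 highest, but the highest was only 1.35 times the lowest.

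The *Per* genes, which encode the repressors that accumulate over the day, took an order opposite to that of *Arntl* only in part. Ctrl replicate 3, the highest sample of *Arntl*, was not the lowest sample of any *Per* gene. *Per3* was at 2.52, 5.11 and 3.42 FPKM in Ctrl replicates 1, 2 and 3 and at 5.16, 2.40 and 2.31 FPKM in cKO replicates 1, 2 and 3. Ctrl replicate 2 and cKO replicate 1, the samples lowest in *Arntl*, were the highest in *Per3*. *Per2* was at 10.7, 11.3 and 7.08 FPKM in Ctrl and at 11.3, 6.57 and 5.08 FPKM in cKO. *Per1*, which also responds within minutes to cAMP and glucocorticoid signals, was at 11.8, 19.5 and 13.3 FPKM in Ctrl and at 14.5, 7.28 and 5.58 FPKM in cKO. In all 3 *Per* genes cKO replicates 2 and 3 were the lowest samples and cKO replicate 1 lay among the Ctrl samples or at their upper end, and *Per1* ranged 3.49-fold.

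The cryptochromes, the partners of the PER proteins in repression, did not follow each other. *Cry1* was at 6.49, 3.39 and 3.64 FPKM in Ctrl and at 3.03, 4.67 and 2.81 FPKM in cKO, so that Ctrl replicate 1 alone was at its high end, and the genotypes overlapped. *Cry2* was at 17.0, 16.0 and 16.6 FPKM in Ctrl and at 23.1, 11.9 and 12.2 FPKM in cKO. The Ctrl samples of *Cry2* lay within 1 FPKM of each other, while cKO replicate 1 was above all of them and cKO replicates 2 and 3 below.

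The REV-ERB genes and *Dbp* were lowest in Ctrl replicate 1. *Nr1d1* was at 11.6, 18.9 and 24.8 FPKM in Ctrl replicates 1, 2 and 3 and at 34.4, 26.5 and 27.4 FPKM in cKO replicates 1, 2 and 3, and it was the only member whose genotypes did not overlap. *Nr1d2* was at 11.6, 21.2 and 18.6 FPKM in Ctrl and at 24.9, 16.0 and 18.0 FPKM in cKO. *Dbp* was at 11.5, 37.4 and 26.1 FPKM in Ctrl and at 35.2, 22.1 and 19.4 FPKM in cKO. The highest *Dbp* samples were Ctrl replicate 2 and cKO replicate 1, as for *Per3*, and *Dbp* ranged 3.24-fold. Spread over the 6 samples, as the SD of log2(FPKM + 1), was set against the 13363 genes averaging at least 1 FPKM. That of *Per1*, *Dbp* and *Nr1d1* was reached by 6.57%, 6.81% and 8.37% of these genes. That of *Arntl* was reached by 12.6% and that of *Clock* by 63.6%.

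**Figure D1:**
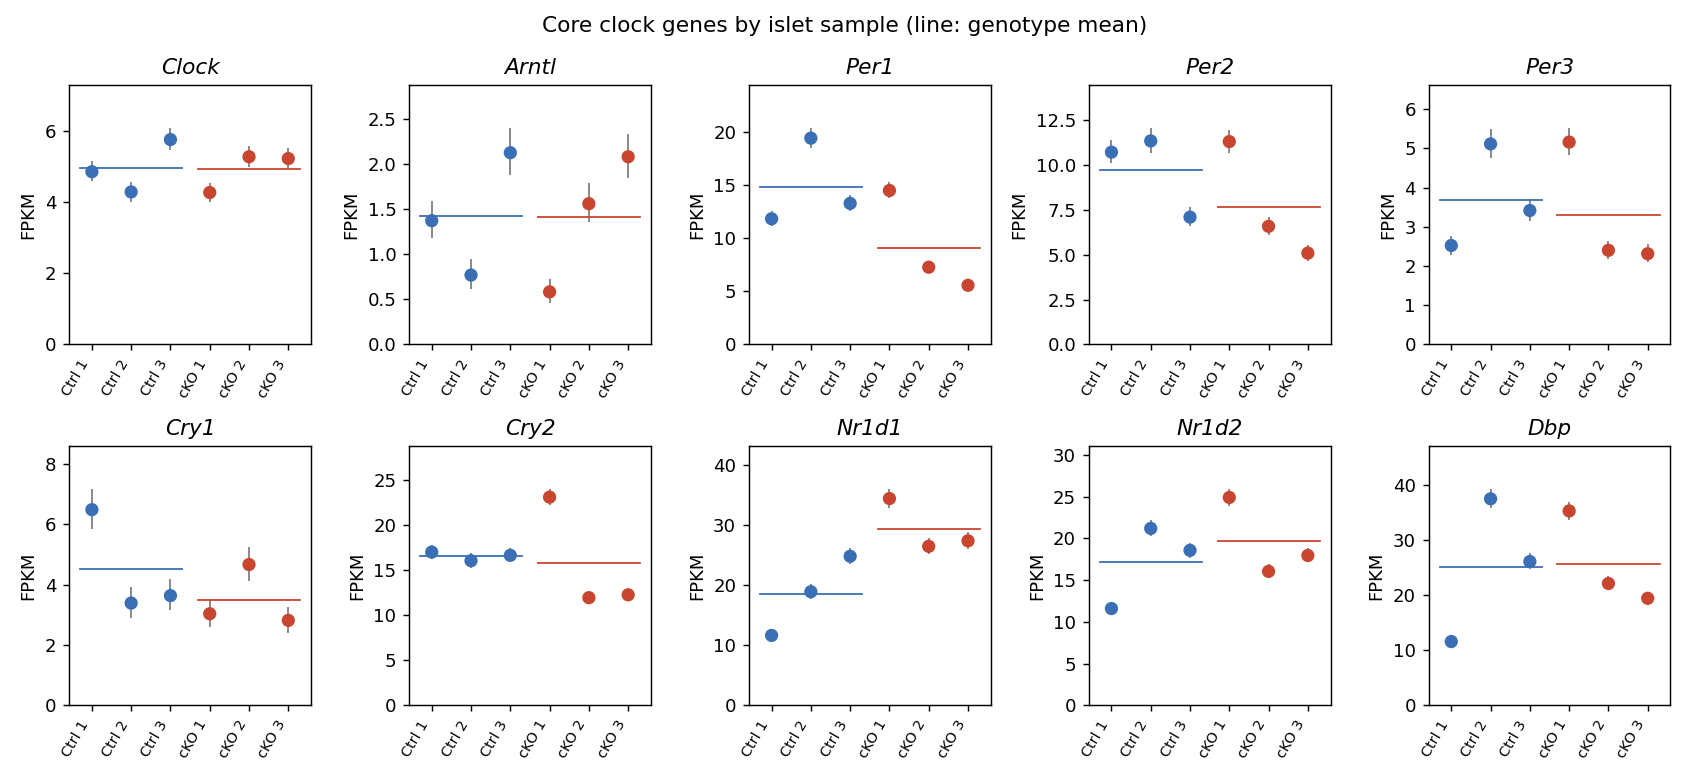
FPKM (linear axis from 0) of each clock gene in Ctrl replicates 1 to 3 (blue) and cKO replicates 1 to 3 (red), with grey bars for the 95% exact Poisson interval of the reads and a line at the mean of each genotype. Ctrl 2 and cKO 1 are the lowest samples of *Clock* and *Arntl* and the highest of *Per3* and *Dbp*, and only *Nr1d1* has 3 cKO points above all 3 Ctrl points.

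The genotype comparison asked which clock transcripts differed when *Parn* was deleted in β cells. At an adjusted p under 0.05, 0 of the 10 members and 0 of all 21211 genes tested (0%) were called by limma, whose smallest adjusted p was 0.274, and limma's voom on the reads called 2 genes, neither of them a member. Without adjustment, 1 member was higher in cKO at a p under 0.05, where 919 genes or 4.33% of all tested were, and 0 members were lower, where 651 genes or 3.07% were. The same member was the 1 of 10 without overlap on the higher side, against 7.11% of all genes, and 0 of 10 lacked overlap on the lower side, against 6.03%. Both counts are near what their background shares give for 10 genes. The split of the unadjusted calls, 58.5% of them higher in cKO, was 82.1% with voom and 78.9% with FPKM rescaled to the reads on genes.

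*Nr1d1* was that member. Its mean was 18.4 ± 6.61 FPKM (SD, n = 3) in Ctrl and 29.4 ± 4.36 FPKM (SD, n = 3) in cKO, it was higher in 3 of 3 cKO samples than in each Ctrl sample, and its difference was 0.70 ± 0.262 (SE) on the log2(FPKM + 1) scale, with a 95% interval from 0.07 to 1.33, an unadjusted p of 0.0347 and an adjusted p of 0.636 (limma). The difference was 0.42 without Ctrl replicate 1, the lowest sample, with an unadjusted p of 0.0485. The call at an unadjusted p under 0.05 was lost when any of 4 other samples was left out of the limma fit: the difference was 0.74 without Ctrl replicate 2, with an unadjusted p of 0.0626 (limma). It was 0.58 without cKO replicate 1, 0.77 without cKO replicate 2 and 0.74 without cKO replicate 3, with unadjusted p-values of 0.107, 0.0543 and 0.0622 (limma). Of the exon bases of *Nr1d1*, 263 of 3077 (8.55%) are shared with *Thra*, a thyroid hormone receptor gene on the opposite strand, and whether the reads were counted by strand is not given in the sources used here. *Thra* was at 8.33 to 13.2 FPKM and its difference was 0.08 (unadjusted p = 0.677, limma).

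*Per1* had the largest negative difference of the members. It was at 14.9 ± 4.04 FPKM (SD, n = 3) in Ctrl and 9.13 ± 4.75 FPKM (SD, n = 3) in cKO, with a log2 difference of -0.72 ± 0.339 (SE), a 95% interval from -1.53 to 0.10 and an adjusted p of 0.70 (limma). This value depended on single samples. Without cKO replicate 1 the difference was -1.08 with an unadjusted p of 0.00476 (limma). It was -0.46 without cKO replicate 3, -0.52 without Ctrl replicate 2 and -0.62 without cKO replicate 2. Their unadjusted p-values were 0.22, 0.214 and 0.179 (limma). Without cKO replicate 1, *Per2* at -0.63 and *Cry2* at -0.42 had unadjusted p-values of 0.0336 and 0.00368 (limma). In that fit the adjusted p-values of *Per1*, *Per2* and *Cry2* were at 0.513 or more. For each of these genes it was the only 1 of 6 fits without a sample that had an unadjusted p under 0.05.

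The other members differed by less than the spread between samples. The log2 differences were -0.35 (95% interval -1.04 to 0.35) for *Per2*, -0.27 (-0.88 to 0.34) for *Cry1*, -0.15 (-0.89 to 0.58) for *Per3* and -0.13 (-0.71 to 0.45) for *Cry2*. They were 0.20 (-0.40 to 0.81) for *Nr1d2* and 0.13 (-0.90 to 1.16) for *Dbp*, which became -0.33 without Ctrl replicate 1 and -0.12 without cKO replicate 1. Without Ctrl replicate 1, *Nr1d2* was at -0.04 and *Cry1* at -0.02. In the fit of all samples the activators were closest to 0, at -0.02 (-0.77 to 0.72) for *Arntl* and -0.01 (-0.32 to 0.31) for *Clock*. The intervals of every member but *Clock* therefore leave room for differences of more than 0.5 on the log2 scale in at least 1 direction. In all, 7 members were below 0 and 3 above, with a median of -0.08 against -0.01 over all genes tested.

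**Figure D2:**
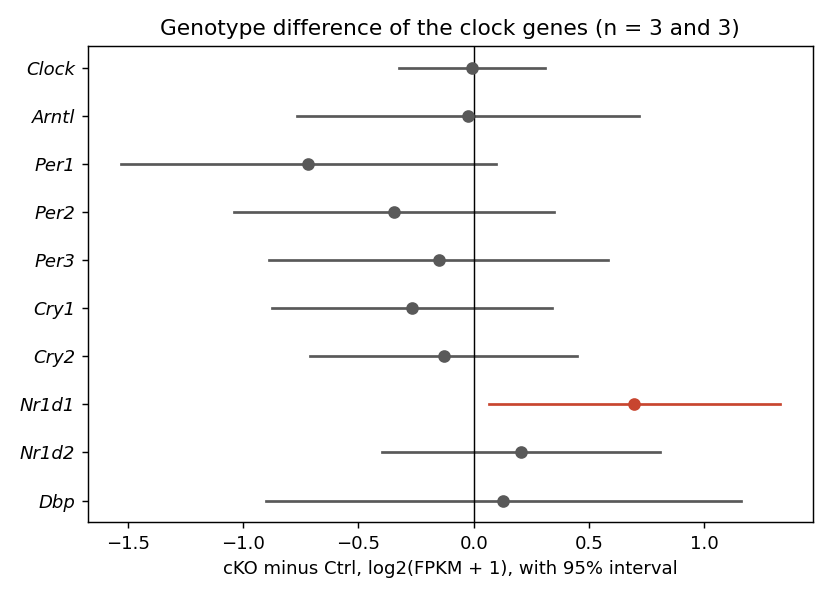
Difference between cKO and Ctrl in log2(FPKM + 1) for each clock gene, with its 95% interval from limma (n = 3 and 3); red marks the gene whose genotypes did not overlap. The interval of *Nr1d1* runs from 0.07 to 1.33 and those of the other 9 genes cross 0.

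With no collection time, the samples have no order of their own, and the phase relations were read from how the members moved with each other over the 6 samples. Pearson's r and Spearman's rho of log2(FPKM + 1) were computed for the 45 pairs of members, each with an exact permutation p over the 720 pairings, two-sided, for which the smallest possible p is 0.00139. Of the 45 pairs, 5 (11.1%) had an r of at least 0.8 and 3 (6.67%) an r of at most -0.8. Among 89278203 pairs of the 13363 genes with a mean of at least 1 FPKM these shares were 3.74% and 3.57%. An exact p under 0.05 was reached by 7 pairs for r and 5 for rho, and by 0 pairs after adjustment over the 45, where the smallest adjusted p was 0.219. The pooled values mix the genotypes, and each genotype alone has 3 samples, too few for a correlation. With the mean of each genotype subtracted, 8 pairs were at or above 0.8 and 5 at or below -0.8.

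The activators moved together. *Clock* and *Arntl* had an r of 0.95 (exact p = 0.00694) and a rho of 0.94 (exact p = 0.0167), with adjusted values of 0.219 and 0.250. Without Ctrl replicate 2 and cKO replicate 1, the samples farthest from the median, r was 0.78, and with any single sample left out it stayed between 0.94 and 0.98.

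Against *Arntl*, 7 of the 9 other members had a negative r. The strongest was *Per2*, with an r of -0.85 (exact p = 0.0417, adjusted 0.284) and a rho of -0.77 (exact p = 0.103), and r was -0.74 without Ctrl replicate 2 and cKO replicate 1 and -0.96 with genotype means subtracted. *Per3* had an r of -0.80 (exact p = 0.0681) and a rho of -0.66 (exact p = 0.175), but r turned to 0.44 without the same samples, so that the relation rested on Ctrl replicate 2 and cKO replicate 1. For *Cry2* r was -0.68 (exact p = 0.125), for *Per1* -0.67 (exact p = 0.140), for *Dbp* -0.54 (exact p = 0.267) and for *Nr1d2* -0.50 (exact p = 0.335). Without the same pair of samples these became -0.14, -0.17, 0.73 and 0.91, so the negative sign for *Dbp* and *Nr1d2* also rested on Ctrl replicate 2 and cKO replicate 1. Without Ctrl replicate 1, by contrast, r with *Arntl* was -0.87 for *Dbp* and -0.81 for *Nr1d2*. *Nr1d1*, which encodes the repressor of *Arntl*, had an r of -0.06 with it, and *Cry1* an r of 0.11.

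**Figure D3:**
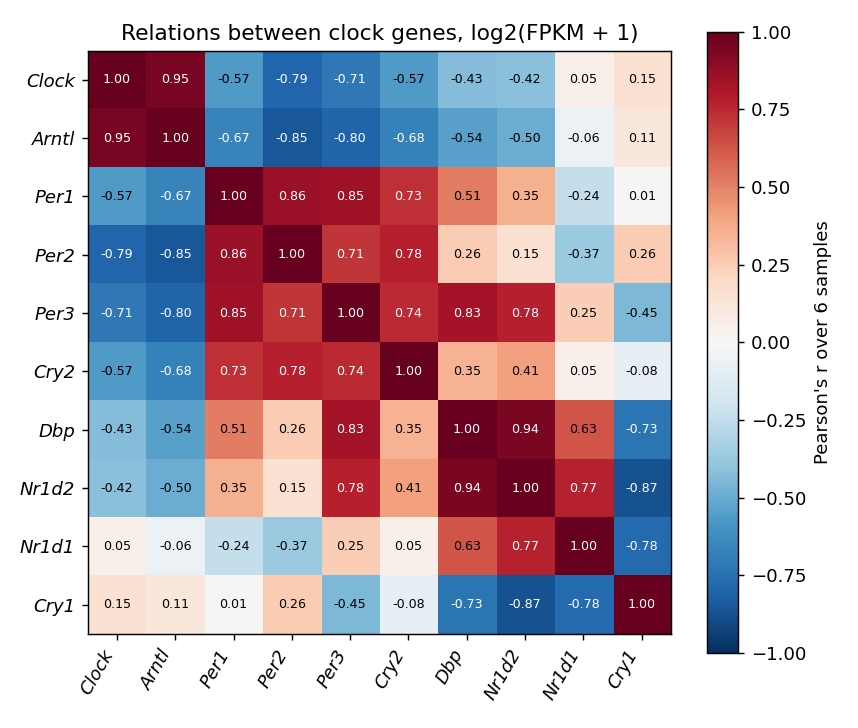
Pearson's r of log2(FPKM + 1) over the 6 samples for every pair of clock genes, from -1 (blue) to 1 (red), with the value in each cell. *Clock* and *Arntl* (r = 0.95) have negative values with the *Per* genes, and *Dbp* and *Nr1d2* (r = 0.94) with *Cry1*, where the value for *Dbp*, -0.73, is -0.17 without Ctrl 1.

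Among the repressors, the *Per* genes moved together and the *Cry* genes did not. *Per1* had an r of 0.86 with *Per2* (exact p = 0.0208, rho 0.94) and of 0.85 with *Per3* (exact p = 0.0472, rho 0.94). Without cKO replicates 2 and 3, the samples farthest from the median of *Per1*, r was 0.37 for *Per2* and 0.81 for *Per3*, so the first relation rested on those samples. *Per2* and *Per3* had an r of 0.71 (exact p = 0.125) and a rho of 0.89 (exact p = 0.0333). Their r was 0.97 without Ctrl replicate 1 and 0.62 without Ctrl replicate 2. Without cKO replicates 2 and 3 it was 0.38, so this relation also rested on those samples. *Cry1* and *Cry2* had an r of -0.08 (exact p = 0.856).

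*Dbp* moved with *Nr1d2* and *Per3*, and less closely with *Nr1d1*. *Nr1d2* and *Dbp* had an r of 0.94 (exact p = 0.00972, adjusted 0.219) and a rho of 0.89, and r was 0.83 without Ctrl replicate 1 and cKO replicate 1. *Per3* and *Dbp* had an r of 0.83 (exact p = 0.0333) and a rho of 0.77, with r at 0.47 without Ctrl replicate 2 and cKO replicate 1 and at 0.99 without Ctrl replicate 1. *Per3* has D-box letters in its promoter, and whether DBP acted on it was not tested. *Nr1d1* and *Nr1d2* had an r of 0.77 (exact p = 0.0819) and a rho of 0.49, and r was 0.26 without Ctrl replicate 1. With *Dbp*, *Nr1d1* had an r of 0.63 and a rho of 0.20, and r was -0.19 without Ctrl replicate 1, and with *Per3* it had an r of 0.25 and a rho of 0.03. *Cry1* ran against *Nr1d2* with an r of -0.87 (exact p = 0.0250) and a rho of -0.66, which was -0.59 without Ctrl replicate 1 and -0.09 without Ctrl replicate 1 and cKO replicate 2, so this relation rested on both of these samples. *Cry1* and *Dbp* had an r of -0.73 (exact p = 0.0986) and a rho of -0.37, and r was -0.17 without Ctrl replicate 1 and 0.40 without Ctrl replicate 1 and cKO replicate 2. Of the 8 pairs at or past 0.8 in size, 4 kept an r of at least 0.7 in size and the same sign without their farthest samples, and 1 changed sign.

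**Figure D4:**
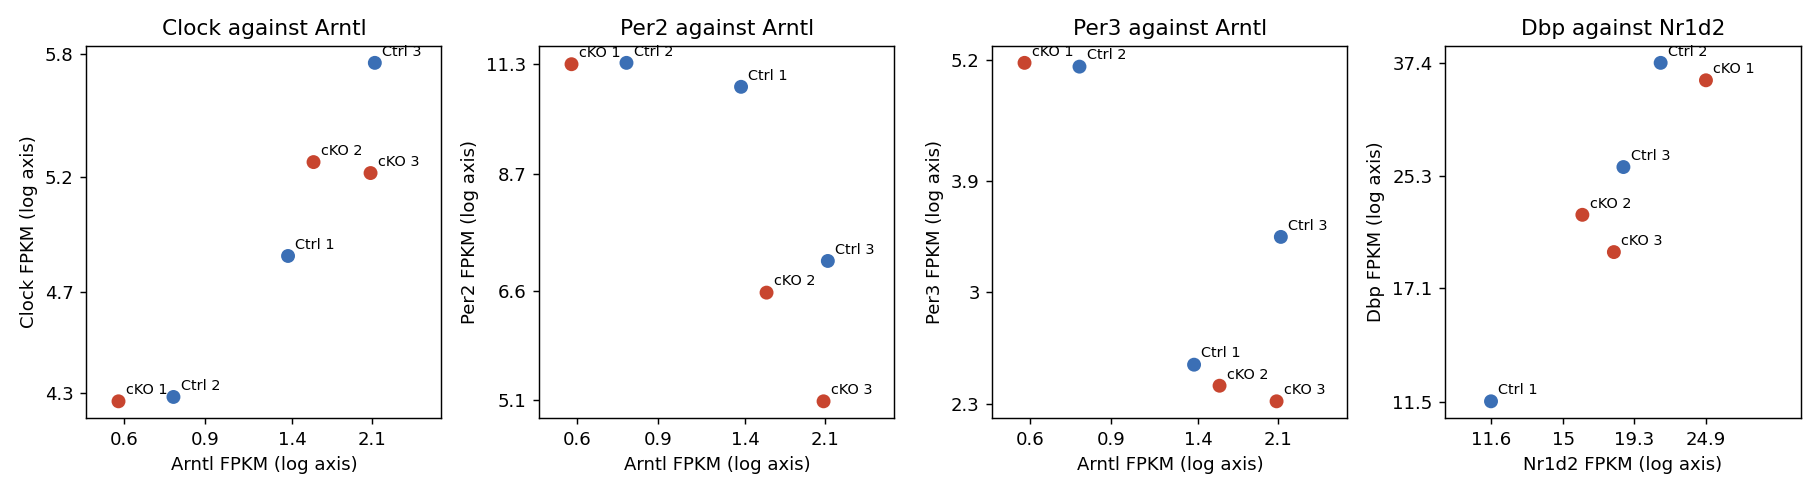
FPKM of pairs of clock genes in each sample (blue Ctrl, red cKO; both axes logarithmic). *Clock* and *Arntl* are both lowest in Ctrl 2 and cKO 1 and both highest in Ctrl 3. Ctrl 2 and cKO 1 are highest in *Per2* and *Per3*, with Ctrl 1 close to them in *Per2* at a higher *Arntl*. Ctrl 1 is lowest in *Nr1d2* and *Dbp*.

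Ratios of members within a sample do not depend on the size of its library, and for the 7 computed the highest over lowest value across the samples ran from 2.80 for *Dbp* over *Nr1d1* to 7.96 for *Per3* over *Arntl*, against 3.65 for *Arntl*, the widest single member. *Dbp* over *Arntl*, as a ratio of FPKM, was 8.42, 48.7 and 12.3 in Ctrl replicates 1 to 3 and 60.5, 14.2 and 9.33 in cKO replicates 1 to 3. *Per3* over *Arntl* was 1.84, 6.65 and 1.61 in Ctrl and 8.86, 1.54 and 1.11 in cKO. In both ratios Ctrl replicate 2 and cKO replicate 1 were far above the other 4 samples, and each genotype had samples on either side. *Nr1d1* over *Per1* was 0.981, 0.972 and 1.87 in Ctrl and 2.37, 3.63 and 4.91 in cKO, without overlap of the genotypes. This ratio sets the member with the largest positive genotype difference over that with the largest negative one, and was chosen with both known. Its separation therefore adds nothing to the differences of the single genes. *Dbp* over *Cry1* was 1.78 in Ctrl replicate 1 and 4.73 to 11.6 in the other 5 samples.

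The other clock genes were described by lists chosen with earlier results of these data known. Of 6 partners and paralogs of the core factors, 5 were tested, and they had a median difference of -0.17 against -0.01 over all genes. *Nfil3*, the repressor that competes with DBP at D-boxes, was at 12.2, 3.26 and 13.7 FPKM in Ctrl and at 3.26, 9.31 and 8.51 FPKM in cKO, lowest in Ctrl replicate 2 and cKO replicate 1 like *Arntl*, with which its r over the 6 samples was 0.88. *Npas2*, the paralog of *Clock*, had an r of 0.89 with *Arntl* at levels of 0.214 to 1.15 FPKM.

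Of the E-box and D-box output genes *Tef*, *Hlf*, *Ciart*, *Bhlhe40*, *Bhlhe41*, *Usp2*, *Wee1* and *Tsc22d3*, all 8 were tested, 3 were above 0 and 5 below, with a median of -0.03 and none at an unadjusted p under 0.05. *Tef* and *Hlf*, the paralogs of *Dbp*, had an r with *Dbp* of 0.91 and 0.90, and *Bhlhe41*, an E-box repressor, of 0.95. The rest of the list did not share this: r with *Dbp* was 0.78 for *Ciart*, 0.51 for *Bhlhe40* and -0.06 for *Usp2*. For *Tsc22d3* and *Wee1* it was -0.53 and -0.83. *Tef* was at 9.93, 18.2 and 12.4 FPKM in Ctrl and at 18.3, 11.7 and 10.5 FPKM in cKO, again highest in Ctrl replicate 2 and cKO replicate 1. *Usp2*, a deubiquitinase under clock control, was at 0.998 to 1.06 FPKM in Ctrl and at 0.752 to 0.874 FPKM in cKO, without overlap, with a difference of -0.17 (adjusted p = 0.780, limma).

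The 9 kinases, ubiquitin ligases and related genes that act on PER and CRY proteins were all tested, 6 above 0 and 3 below, with a median of 0.01 and none at an unadjusted p under 0.05. *Csnk1d*, which encodes casein kinase 1δ, was at 21.2 to 25.4 FPKM over the 6 samples and thus spread less than the *Per* genes. *Csnk1e* was at 3.41 to 3.46 FPKM in Ctrl and 3.51 to 3.70 FPKM in cKO, without overlap, with a difference of 0.05 (adjusted p = 0.920, limma).

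**Figure D5:**
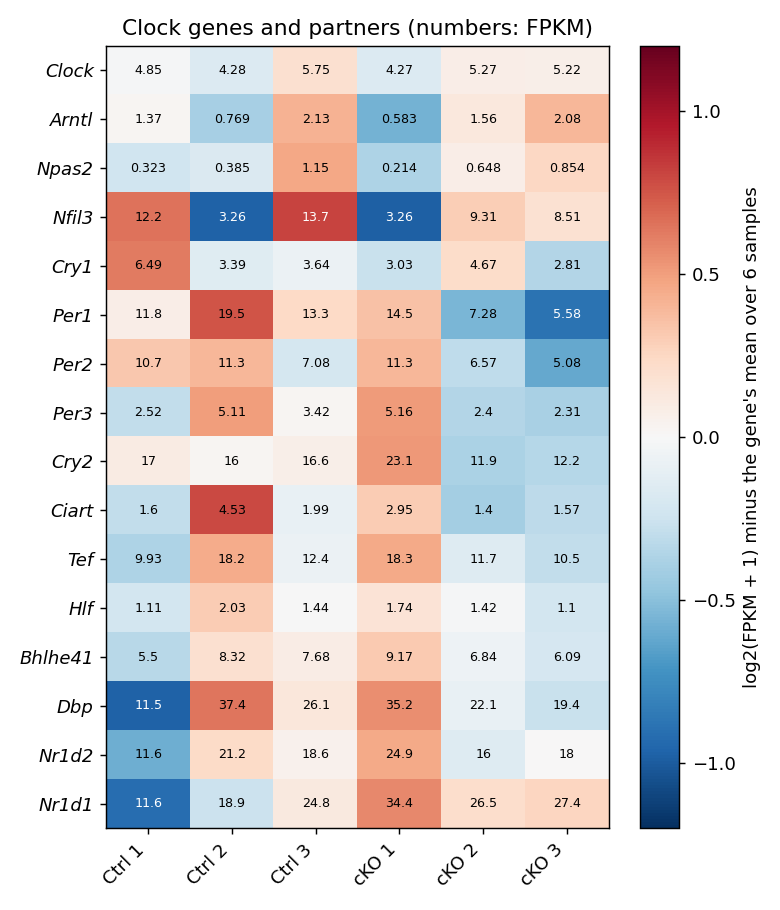
log2(FPKM + 1) of clock genes and of partner and output genes in each sample, as the deviation from the gene's mean over the 6 samples (blue lower, red higher), with FPKM in each cell. *Nfil3* and *Npas2* share the low values of *Arntl* in Ctrl 2 and cKO 1, where *Tef*, *Per3* and *Dbp* are high.

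Since *Per1* also responds to acute signals and to handling, genes of such responses were set beside it. Of 8 immediate-early genes (*Fos*, *Fosb*, *Jun*, *Junb*, *Egr1*, *Ier2*, *Atf3* and *Dusp1*), 2 were above 0 and 6 below, with a median of -0.12. *Jun* alone lacked overlap, at 91.7 to 97.6 FPKM in Ctrl and 102 to 168 FPKM in cKO (difference 0.42, unadjusted p = 0.0548, limma). Its direction was opposite to that of *Per1*, while the 6 genes below 0 had the direction of *Per1*. Of 6 heat shock genes, 6 were below 0, with a median of -0.18, none at an unadjusted p under 0.05, and their FPKM summed to 404 in Ctrl replicate 1 against 167 to 267 in the other 5 samples. Of 6 glucocorticoid-induced genes, which include *Per1* itself, 5 were below 0 and 1 above, with a median of -0.25. *Fkbp5*, a chaperone of the glucocorticoid receptor, was at 9.15, 8.55 and 8.53 FPKM in Ctrl and at 6.29, 7.51 and 5.12 FPKM in cKO, lower in 3 of 3 without overlap, with a difference of -0.43 ± 0.133 (SE), an unadjusted p of 0.0165 and an adjusted p of 0.546 (limma). The part of such responses in the levels of *Per1* was not tested.

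Markers of the cell types that islets can hold also moved between samples. The summed FPKM of the β cell markers, led by *Ins2*, was 234500 to 275000 in Ctrl and 193700 to 215900 in cKO, with 1 of 8 above 0 and 7 below. That of α cell markers was 8753 to 16340 and that of δ cell markers 4174 to 7827, with overlap of the genotypes. Acinar markers, from exocrine tissue, summed to 13300, 20360 and 7567 FPKM in Ctrl replicates 1 to 3 and to 34170, 9320 and 28790 in cKO replicates 1 to 3, with 9 of 9 above 0 and none at an unadjusted p under 0.05. Stromal markers summed to 39.4 and 39.7 FPKM in cKO replicates 2 and 3, the samples lowest in the *Per* genes, against 7.96 to 15.9 in the other 4, with 6 of 6 above 0. Endothelial markers summed to 101 to 114 FPKM in Ctrl and 123 to 155 in cKO with 5 of 6 above 0, and ductal markers to 40.3 to 43.9 and 30.3 to 36.6 with 2 of 4 above 0. Leukocyte and proliferation markers had 6 of 6 and 4 of 4 below 0, with Ctrl replicate 1 the highest in both sums. The part of these cell types in the levels of the clock genes was not tested.

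The genes whose pattern over the 6 samples was most like that of *Dbp*, among 11600 named genes with a mean of at least 1 FPKM, were *Slc25a13* (r = 0.995), *Chmp4c* (0.990), *Zkscan7* (0.988), *Inafm2* (0.988) and *Clcn2* (0.987), and 3.87% of these genes had an r of at least 0.8 with it. Their range was smaller than that of *Dbp*: *Slc25a13*, a mitochondrial aspartate-glutamate carrier, was at 1.10 FPKM in Ctrl replicate 1 and at 1.61 and 1.60 FPKM in Ctrl replicate 2 and cKO replicate 1. Those most like *Arntl* were *Gpx7* (r = 0.976), *Tcf19* (0.975), *Ppm1b* (0.971), *Msrb2* (0.970) and *Pnrc1* (0.970), with 1.52% of genes at 0.8 or above. *Tcf19* was at 2.75 FPKM in Ctrl replicate 2 and 2.56 FPKM in cKO replicate 1, its lowest samples as for *Arntl*, and at 3.63 to 4.28 FPKM in the other 4. These are the highest values out of 11600 over 6 samples and are given as a description.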

How the data were processed

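Islet RNA of 3 Ctrl and 3 cKO samples was extracted with TRIzol and sequenced from SMARTER mRNA libraries. The authors deposited FPKM per gene and sample, with coordinates of GRCm38; the aligner and counter are not given in the sources used here. Read back through gene length, 100% of the FPKM values came out as whole reads (tolerance 0.02 reads). The library sizes read back from it, 15731223 to 18085944, gave a median ratio of 1.00 in every sample, so the values are already scaled between samples.

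The 10 members, the gene lists and the tests were chosen with earlier results of these data known. Named are all members and *Parn*, genes of the lists at an unadjusted p under 0.05 or without overlap at a mean of at least 1 FPKM, the 5 genes most like *Dbp* and *Arntl*, and the pairs of members with *Arntl*, within families or at an exact p under 0.05. *Nfil3*, *Npas2*, *Tef*, *Hlf*, *Bhlhe41*, *Csnk1d*, *Thra*, *Xist* and *Ddx3y*, and the ratios, were chosen after their values were seen. Of the cell markers, only *Ins2* is named, and some genes that were tested are not reported here.

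log2(FPKM + 1) was compared with limma 3.58.1 in R 4.3.3 (two-sided, empirical Bayes with a trend, Benjamini-Hochberg adjustment over 21211 genes with a mean of at least 0.1 FPKM). Alternatives changed the pseudocount, filter, trend, sample weights, scaling or samples, added a replicate block, or ran voom on the reads. Rescaling to the reads on genes was chosen after seeing the data. Correlations used scipy 1.17.1 with exact permutation. The code was tested on simulated data. The labels do not say that samples are separate animals, so p-values measure the spread between these samples. A gene sharing exons with another, such as *Dbp* with *Sphk2* (18.0% of its exon bases), may hold its reads.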

Additional observations from a re-analysis of the deposited data

How the results depend on the processing

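The difference of *Nr1d1* kept its direction in all 15 alternatives, and its unadjusted p was under 0.05 in 10 of them. No member had an adjusted p under 0.05 in any alternative. With array weights *Dbp* was at -0.28, *Clock* at 0.072, *Arntl* at 0.22 and *Per1* at -0.998 (unadjusted p = 0.0224), 1 member was lower and 1245 genes were lower. Voom, a limma method for counts, put *Clock* at 0.078 and *Arntl* at 0.0021, with 1500 genes higher, 328 lower and 2 past the adjusted threshold. Rescaling to the reads on genes gave 0.065 for *Clock* and 0.024 for *Arntl*, with 1408 genes higher and 377 lower. The cause was not tested.

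Same-numbered samples did not deviate together (r of -0.17, -0.02 and -0.07 for numbers 1, 2 and 3), so the numbers were not taken as pairs. With a replicate block *Nr1d1* stayed at 0.70 with an unadjusted p of 0.0661, and 0 members and 737 genes were higher and 538 lower.

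Leaving out 1 sample at a time gave -0.33 to 0.48 for *Dbp*, 0.42 to 0.93 for *Nr1d1*, -0.038 to 0.37 for *Nr1d2*, -0.42 to 0.026 for *Cry2*, -1.08 to -0.46 for *Per1*, -0.63 to -0.13 for *Per2*, -0.091 to 0.086 for *Clock*, -0.45 to -0.02 for *Cry1*, -0.44 to 0.059 for *Per3* and -0.23 to 0.25 for *Arntl*. It gave 683 to 1231 genes higher, 401 (without cKO replicate 3) to 1142 (without Ctrl replicate 1) lower, 0 to 14 past the adjusted threshold (14 without Ctrl replicate 1), 0 to 1 members higher and 0 to 3 lower (3 without cKO replicate 1). Member pairs at or above 0.8 numbered 5 to 12 (12 without Ctrl replicate 1) and at or below -0.8 3 to 9 (9 without Ctrl replicate 3). With genotype means subtracted they numbered 8 and 5. Depth limits mainly *Arntl*, with 77 to 283 reads a sample.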
